A study of Trachinotus ovatus with 6 samples.

Results

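Genes expressed between 10 and 100 times more strongly in ovary than in testis were examined in the golden pompano, Trachinotus ovatus, a teleost of warm seas. A gene belonged to this group when each of 3 ovaries held at least 10 FPKM (sequenced fragments scaled to gene model length in kilobases and to 1000000 fragments of the library) and the ovary mean was at least 10 and under 100 times the testis mean. The rule found 230 of 22062 genes in the table, or 1.04%, and 7.08% of the 3247 genes that reached 10 FPKM in every ovary. Libraries came from the ovaries of 3 females and the testes of 3 males held at one fisheries research base, and differ by gonad alone as far as the labels go. Neither age, strain nor stage of gonad maturity is given in the sources used here, and no agent was applied: the treatment field names only the removal of the gonad. The name column of the table repeats the identifiers, so the genes are given by position, their products are unknown here, and the gonad labels could not be checked against marker genes.

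As background, a fish ovary consists largely of growing oocytes surrounded by follicle cells. Oocytes store RNA and protein for the embryo, including egg envelope proteins, cell cycle regulators and factors needed before the embryonic genome is switched on, while follicle cells make oestrogen and nourish the oocyte. A testis consists mostly of spermatogenic cells at successive stages, with Sertoli and Leydig cells, and shares with the ovary the machinery of meiosis and of germ cell maintenance. A transcript with strong ovary bias can therefore still be present in testis. In whole gonads, fewer cells of a type and less RNA per cell cannot be told apart.

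The genes were selected on their ovary and testis levels in all 6 libraries, so those levels are described here without a test. FPKM is a relative unit, and the summed FPKM of a library ran from 658899 to 796856 in ovaries and from 485022 to 490967 in testes. The median gene of the table stood at 0.463 to 0.947 FPKM in the ovaries and at 5.10 to 5.998 FPKM in the testes. Rescaling every library to the same sum (TPM) left 180 genes in the range, 157 of them among the 230, while dividing by median ratios between libraries put 1321 genes there, 118 of them among the 230. After quantile normalization 410 genes met the rule, 197 of them among the 230. Under each of these 3 scalings all 230 genes had a higher mean in ovary than in testis. The choice of a ratio of at least 10 in the same libraries favours this by construction. Their lowest ratio was 6.67 with TPM, 44.6 with median ratios and 1.87 after quantile normalization.

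Most of these genes were moderately to highly abundant in ovary. The ovary mean ran from 12.7 to 29281 FPKM, with a median over genes of 92.1 FPKM and quartiles of 46.5 and 218 FPKM. By library, the median gene of the group stood at 74.4, 102 and 98.4 FPKM in ovaries 1, 2 and 3, and at 4.36, 3.31 and 4.30 FPKM in testes 1, 2 and 3. The ovary median lay between those of the neighbouring classes at 10 FPKM or more in each ovary: genes at least 100 times higher in ovary (85 genes) had a median ovary mean of 516 FPKM, and genes 1 to 10 times higher (2119 genes) one of 36.8 FPKM. An ovary mean of 10 to 30 FPKM was seen for 34 genes, 30 to 100 FPKM for 86, 100 to 300 FPKM for 73, 300 to 1000 FPKM for 22, and above 1000 FPKM for 15. Of the 1000 most abundant ovary genes 146 belonged to the group, against 14 of the 1000 most abundant testis genes.

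Ratios were concentrated at the lower end of the range. The median ratio was 20.5, with 111 genes from 10 to 20, 48 from 20 to 30, 38 from 30 to 50 and 33 from 50 to 100. Ovary level varied little across these steps, with medians of 95.7, 85.4, 88.5 and 104 FPKM, whereas the median testis level was 6.43, 3.56, 2.20 and 1.499 FPKM. At a similar ovary level, lower testis levels in genes of higher ratio follow from how the ratio is formed. No gene of the group had an ovary value at or below a testis value: the lowest ovary exceeded the highest testis in 230 of 230, a property of 11.5% of all genes and 59.3% of genes at 10 FPKM or more in each ovary that the rule favours by construction. The lowest ovary was 12.7 times the highest testis in the median gene and 3.36 times in the closest one. This closest gene lies on linkage group 9 (14837393 to 14837794), where ovary 2 held 100.3 FPKM and testis 2 held 29.8 FPKM. A model not of the group, with a ratio of 4.06, has the same span. Ovary 2 was the highest ovary for that model but the lowest for the closest gene. How reads were shared between these models is not known, so the value of 3.36 is uncertain.

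**Figure D1:**
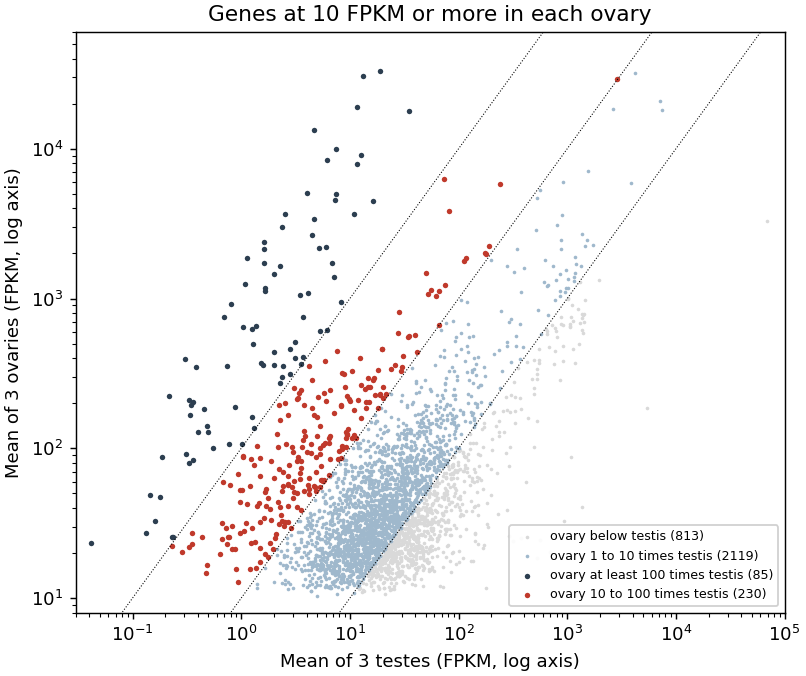
Mean FPKM of 3 ovaries (vertical log axis) against the mean of 3 testes (horizontal log axis) for the 3247 genes at 10 FPKM or more in each ovary, with dotted lines at ratios of 1, 10 and 100. The 230 genes in red lie between the upper lines, with ovary means of 12.7 to 29281 FPKM, and most sit nearer the ratio of 10 than that of 100.

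Together the 230 genes held 12.6%, 12.0% and 12.8% of the summed FPKM of ovaries 1, 2 and 3, and 0.940%, 1.58% and 1.11% of that of testes 1, 2 and 3. The most abundant gene alone, SCSFRI_TO_T_00025873 on linkage group 9 (14839898 to 14840206), held 4.48%, 3.29% and 4.16% of the ovary sums. Without it the group made up 8.47% ± 0.335 of the ovary sums and 0.614% ± 0.143 of the testis sums (SD, n = 3 each). This gene sat almost on the lower limit, with a ratio of 10.09, and the rule no longer took it without ovary 1 (ratio 8.98), ovary 3 (9.88), testis 1 (8.90) or testis 3 (9.73). The ovary share of the genes chosen was then 9.06%, 8.28%, 8.19% and 9.10%. Without ovary 2 the share was 19.3%, and the most abundant gene chosen was then one on linkage group 16 (14746782 to 14800512) with a ratio of 10.4, against 7.68 over all libraries.

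The 10 most abundant genes had ovary means from 1481 to 29281 FPKM. SCSFRI_TO_T_00025873 stood at 35673, 21689 and 30481 FPKM in the ovaries and at 2127, 3895 and 2688 FPKM in the testes. Ovary 2 was the lowest ovary and testis 2 the highest testis, and the groups did not overlap. Its span is 309 bp and overlaps those of 4 other genes, and how reads were shared among these models is not known. SCSFRI_TO_T_00118578 on linkage group 14 (554516 to 557867) showed 7044, 5344 and 6541 FPKM in the ovaries and 42.0, 117 and 63.3 FPKM in the testes, a ratio of 85.2, and its span overlaps no other gene. The same order of libraries was seen here, with ovary 2 low and testis 2 high.

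A short gene on linkage group 21 (16816221 to 16816583) showed 6997, 4445 and 5897 FPKM in the ovaries and 174, 324 and 224 FPKM in the testes. On linkage group 10 (1186202 to 1189879) a gene reached 4923, 3150 and 3516 FPKM in ovaries against 56.3, 119 and 71.0 FPKM in testes. Both stand clear of other gene spans and repeat the pattern of a low ovary 2 and a high testis 2. A gene on linkage group 7 (14437627 to 14506396) departed from it, with 1651, 2114 and 2279 FPKM in the ovaries and 188, 160 and 174 FPKM in the testes, where testis 2 was lowest. On linkage group 20 (8195596 to 8196445) the ovaries had 1999, 1823 and 2129 FPKM and the testes 162, 199 and 178 FPKM, the smallest relative spread in ovary (CV 7.76%) among the 10 most abundant genes. A gene on linkage group 3 (5294426 to 5299870) showed 1792, 1375 and 1277 FPKM in the ovaries and 57.5, 25.4 and 67.4 FPKM in the testes, with testis 2 the lowest. The remaining 3 of the top 10 are overlapping models on linkage group 12, described with the testis spread.

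**Figure D2:**
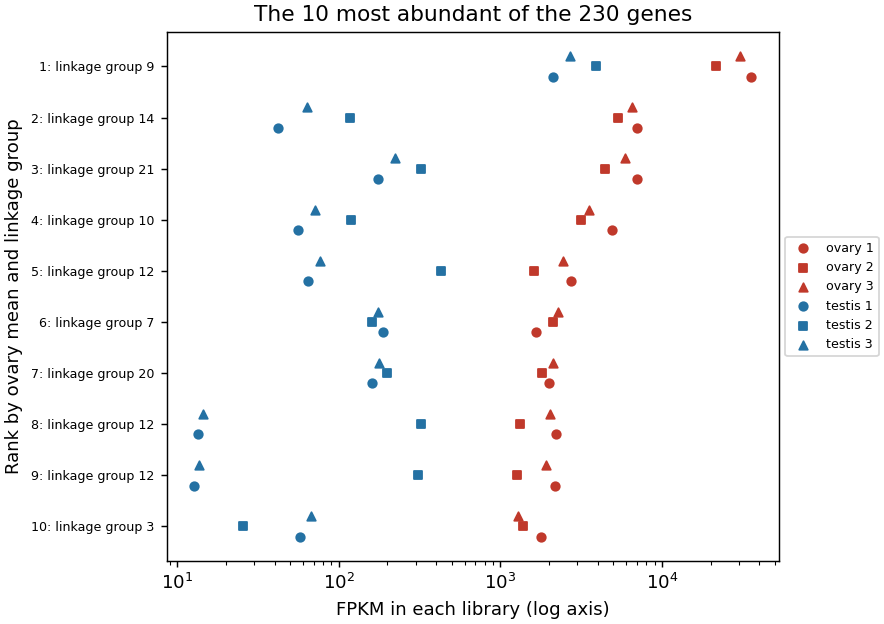
FPKM in each of the 6 libraries (log axis) for the 10 genes of the group with the highest ovary mean, in rank order with their linkage group. Red symbols (ovaries) and blue symbols (testes) do not overlap in any row, and in the linkage group 12 rows testis 2 lies apart from testes 1 and 3, at 309 to 427 FPKM.

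Transcripts of this group were listed above 0 in every testis, as were all 3247 genes at 10 FPKM or more in each ovary. In all 3 testes 190 of the 230 genes reached 1 FPKM and 46 reached 10 FPKM, while 18 stayed under 1 FPKM in each. These counts were 16896, 6592 and 3713 of the 22062 genes of the table. Among the 3247 genes at 10 FPKM or more in each ovary they were 3155, 2325 and 41. The testis mean had a median of 4.07 FPKM and quartiles of 1.87 and 9.57 FPKM. That median lay below the median gene of each testis, and the upper quartile lay above it. Across testes, 77 genes of the group lay above the library's own median gene in all 3, 125 lay below it in all 3, and the rest were above in some testes and below in others. Genes at least 100 times higher in ovary had a median testis mean of 1.67 FPKM, with 34 of 85 at 1 FPKM or more in every testis. Because the rule caps the testis mean through the ratio, these levels partly follow from the ovary level of each gene.

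The 5 highest testis means, from 174 to 2903 FPKM, belonged to genes among the 10 most abundant in ovary, and 7 of the 230 genes had a testis mean above 100 FPKM. The 5 lowest testis means belonged to genes with ovary means of 20.3 to 27.3 FPKM. A gene on linkage group 5 (20026071 to 20037995) showed 0.381, 0.112 and 0.196 FPKM in the testes and 31.6, 14.7 and 20.6 FPKM in the ovaries. On linkage group 1 (18742165 to 18751649) the testes had 0.358, 0.211 and 0.282 FPKM and the ovaries 10.7, 26.9 and 23.3 FPKM. Both had the lowest testis value in testis 2. A gene on linkage group 18 (1973848 to 1987270) showed 0.305, 0.317 and 0.370 FPKM in testes and 20.9, 22.7 and 22.1 FPKM in ovaries, with little spread in either gonad. The other 2 of the 5 lowest, on linkage group 2 (5273860 to 5279001) and linkage group 8 (4790460 to 4806077), had testis means of 0.352 and 0.353 FPKM. Read depth is unknown, so the counting error of these low values is not known.

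On the FPKM scale, the median spread of these genes between ovaries was close to that of all genes expressed there. The coefficient of variation (CV, SD over mean, n = 3) had a median of 18.4% and quartiles of 10.8% and 28.8%, against a median of 18.5% over all genes at 10 FPKM or more in each ovary. Without ovary 1 these medians were 9.55% and 8.43%. The highest ovary was over 2 times the lowest in 45 of 230 genes, or 19.6%, against 19.96% of that wider set. The steadiest gene, on linkage group 5 (16779309 to 16788942), had 297, 295 and 293 FPKM, a CV of 0.564%. It was followed by genes on linkage group 6 (16094723 to 16100305) with 255, 260 and 259 FPKM, linkage group 16 (11179455 to 11189460) with 328, 332 and 338 FPKM, linkage group 5 (5696393 to 5700888) with 317, 326 and 315 FPKM, and linkage group 19 (1941141 to 1947414) with 86.0, 84.3 and 88.6 FPKM. Such flat values hold on the FPKM scale as deposited, and the comparison of the medians changed direction with the scale. The median ovary CV of the 230 genes, against that of all genes at 10 FPKM or more in each ovary, was 20.2% against 24.95% with TPM, 35.6% against 26.7% with median ratio scaling and 15.3% against 12.8% after quantile normalization.

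The 5 genes with the highest ovary CV were lowest in ovary 1, while the next one in that order (CV 62.2%, chosen after its values were seen) was lowest in ovary 2. On linkage group 13 (16349734 to 16466468) the ovaries had 24.6, 197 and 103 FPKM (CV 79.6%), while the testes had 5.75, 6.43 and 5.64 FPKM. A gene on linkage group 6 (8431907 to 8436776) showed 20.3, 161 and 102 FPKM in the ovaries and 4.38, 2.47 and 5.14 FPKM in the testes. On linkage group 2 (21556535 to 21569056) the ovaries had 15.2, 102 and 61.8 FPKM against 0.661, 0.715 and 0.649 FPKM in the testes. These 3 genes share one order, ovary 2 above ovary 3 above ovary 1, with an ovary 2 value 6.74 to 7.98 times that of ovary 1. A gene on linkage group 4 (27861011 to 27866098), with 76.4, 281 and 125 FPKM, followed it too, whereas one on linkage group 15 (24277708 to 24283864), with 14.1, 75.2 and 78.2 FPKM, had ovaries 2 and 3 close together. The spans on linkage groups 13 and 15 each overlap 3 other genes and the one on linkage group 4 overlaps 1. Those on linkage groups 6 and 2 overlap no other gene. Ovary 1 was the lowest ovary for 124 of the 230 genes (53.9%), compared with 71.3% of genes at 10 FPKM or more in each ovary and 73.6% of the whole table. This holds on the FPKM scale as deposited. Ovary 1 was the highest ovary for 48 of the 230 genes with TPM, 193 with median ratio scaling and 111 after quantile normalization. Among the 3247 genes at 10 FPKM or more in each ovary these counts were 288, 2479 and 1681. The part of ovary 1 in the spread of this group was not tested.

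Between testes, the median CV of the group lay above that of all ovary-expressed genes and below that of genes with still stronger bias. It was 22.3%, against 12.0% for all genes at 10 FPKM or more in each ovary, 62.6% for those at least 100 times higher in ovary and 11.0% for those 1 to 10 times higher. Without testis 2 the median was 11.2% for the group and 6.95% for all genes at 10 FPKM or more in each ovary. Testis level differs between these classes, and the order of the medians depended on that level. Among genes with a testis mean of 0.3 to 1 FPKM the median testis CV was 23.4% for the 24 in the group, 28.8% for other genes of the table and 59.7% for the 19 others at 10 FPKM or more in each ovary. Among genes with a testis mean of 1 to 3 FPKM the median testis CV was 23.9% for the 66 in the group, 21.5% for 3545 other genes of the table and 28.7% for 56 others at 10 FPKM or more in each ovary. At 3 to 10 FPKM these medians were 20.8%, 15.1% and 12.7%, and at 30 to 100 FPKM, with 15 genes in the group, 26.75%, 13.6% and 10.8%. The highest testis was over 2 times the lowest in 49 of 230 genes, or 21.3%, against 3.96% of genes 1 to 10 times higher in ovary and 68.2% of those at least 100 times higher. No test of these differences was made, since the testis values took part in the choice.

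Some genes were nearly level between testes. On linkage group 6 (30411992 to 30434447) the testes had 1.92, 1.96 and 1.995 FPKM and the ovaries 24.4, 17.5 and 21.9 FPKM. On linkage group 11 (1129433 to 1217126) the testes had 1.61, 1.65 and 1.68 FPKM and the ovaries 26.5, 64.5 and 62.1 FPKM. These spans on linkage groups 6 and 11 overlap 5 and 9 other genes, and how reads were shared there is not known. Genes on linkage group 1 (7805720 to 7812465), linkage group 17 (4217089 to 4241762) and linkage group 16 (19465463 to 19471910) had testis means of 9.37, 5.27 and 2.90 FPKM with a CV of 3.07% to 3.33%.

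At the other extreme stood 2 loci, each a stretch of overlapping gene models. On linkage group 9 a gene from 14889098 to 14901963 had 1314, 1068 and 719 FPKM in the ovaries and 0.370, 88.4 and 96.0 FPKM in the testes, a range of 259 times between testes, with testis 1 apart from the others. It lies in a stretch of 14 linked models (14837393 to 14911643) that also holds SCSFRI_TO_T_00025873 and 2 others of the group. A model in that stretch, from 14899750 to 14900053 and not of the group, was listed at 0.0766 FPKM in ovary 1 against 1035 and 1078 FPKM in ovaries 2 and 3. Single libraries near 0 beside high ones thus occurred in more than one of these models.

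On linkage group 12, 3 of 4 overlapping models belonged to the group. The longest (19034507 to 19037569) had 2734, 1611 and 2426 FPKM in the ovaries and 64.3, 427 and 76.9 FPKM in the testes. A pair of identifiers shares the span from 19037163 to 19037468: one had 2223, 1324 and 2019 FPKM in ovaries and 13.5, 321 and 14.4 FPKM in testes, and the other 2164, 1260 and 1920 FPKM in ovaries and 12.8, 309 and 13.7 FPKM in testes. In all 3 models testis 2 was highest, at 6.65 to 24.1 times the lowest testis. The fourth model (19037223 to 19037468), 1 to 10 times higher in ovary, had 1751, 3894 and 2327 FPKM in the testes and 20606, 14052 and 20565 FPKM in the ovaries. On linkage group 12 the shorter models lie inside the longest one, and only the pair has the same span. On linkage group 9 only 2 of the 4 genes of the group overlap each other (14839895 to 14840206 and 14839898 to 14840206). The others there are linked to them through longer models not of the group, such as one from 14837393 to 14911643. The 7 genes of the group at both loci are therefore uncertain as separate genes.

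Which library was highest changed with abundance. For the 215 genes with an ovary mean under 1000 FPKM, testis 1 was the highest testis in 114, testis 2 in 42 and testis 3 in 59. For the 15 genes above 1000 FPKM, testis 2 was highest in 11, testis 1 in 2 and testis 3 in 2, and ovary 1 was the highest ovary in 11, ovary 3 in 4 and ovary 2 in 0. Among the 6 of those 15 whose spans overlap no other gene, testis 2 was highest in 5. The 81 other genes above 1000 FPKM in ovary showed a different order. Testis 1 was highest in 55, testis 2 in 23 and testis 3 in 3, while ovary 1 was likewise the highest ovary for most of them (65). By testis level, testis 2 was highest in 10 of 15 genes of the group with a testis mean of 30 to 100 FPKM. At that level it also led among other genes of the table, in 845 of 1815 against 641 for testis 1. Above 100 FPKM in testis it led in 6 of 7 genes of the group, but in 162 of 427 others against 212 for testis 1. Over the whole group testis 1 was highest in 50.4% of genes, against 47.7% of the table and 89.4% of genes at least 100 times higher in ovary. Which ovary was highest depended on the scale: ovary 2 led in 102 of the 230 genes with FPKM and in 152 with TPM, whereas ovary 1 led in 193 with median ratio scaling and in 111 after quantile normalization. The 3247 genes at 10 FPKM or more in each ovary shifted likewise. Among them ovary 2 led in 1930 with FPKM and 2594 with TPM. Ovary 1 led in 2479 with median ratio scaling and in 1681 after quantile normalization. The shift is therefore not particular to the group. Testis 1 led the testes in the 230 genes on all 4 scales, being highest in 100 to 116. Among the 3247 it was highest in 1335 to 1584, but with median ratio scaling testis 2 led there, in 1411 against 1335.

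**Figure D3:**
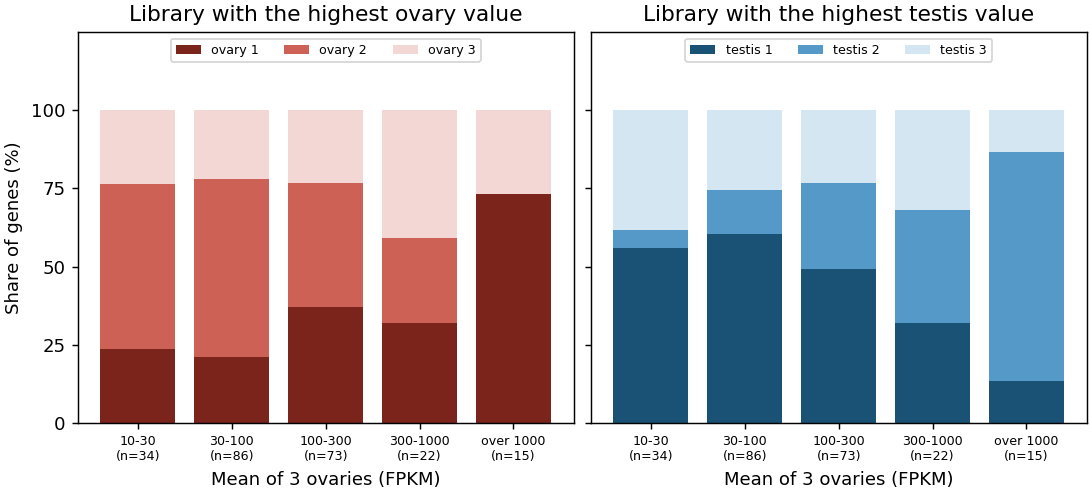
Share of the group's genes (vertical axis, %) for which each ovary (left) or each testis (right) held the highest FPKM, by the mean of 3 ovaries (horizontal axis, FPKM, with the number of genes). Above 1000 FPKM ovary 1 and testis 2 each led in 11 of 15 genes, while below 100 FPKM ovary 2 and testis 1 led most often.

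Close to the limits of the rule, values changed little across the line. Just inside a ratio of 10 stood SCSFRI_TO_T_00025873 and a gene on linkage group 3 (7592257 to 7595156) with 586, 655 and 744 FPKM in ovaries and 49.3, 82.8 and 65.3 FPKM in testes, a ratio of 10.06. Just outside stood genes on linkage group 13 (9830407 to 9909736) and linkage group 19 (16478356 to 16479681) with ratios of 9.93 and 9.92. At the upper limit the linkage group 5 gene described above reached 97.0 and the variable linkage group 2 gene 88.5, while genes on linkage group 15 (24404922 to 24408041) and linkage group 14 (6340985 to 6351391) lay outside at 101 and 103. By the ovary minimum, genes with a lowest ovary of 10.7 and 11.9 FPKM were taken and genes with 9.55 and 9.16 FPKM were not. In all 63 genes had a ratio from 10 to 100 with an ovary under 10 FPKM, and 28 of them reached 10 FPKM in another ovary.

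A library that took no part in the choice mostly placed the genes in the same range. Chosen without ovary 3, 215 of 229 genes had at least 10 FPKM in ovary 3 and a ratio of ovary 3 to the testis mean from 10 to 100, or 93.9%. Such agreement was 88.5% for ovary 2 (201 of 227) and 71.2% for ovary 1 (188 of 264), where 70 genes fell under a ratio of 10. For the testes it was 85.5% in testis 1, 87.7% in testis 2 and 89.3% in testis 3. The left-out value sometimes fell far outside, and the lowest ratio was 0.292 for ovary 1 and 0.0687 for ovary 3. These shares are a description, since the other libraries of the same gonads still entered each choice. The mean of the other gonad entered both the choice and the ratio checked. Such shares were not counted for other genes.

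All 24 linkage groups held genes of the group, and 1 gene lay on an unplaced sequence, with 15.1, 14.9 and 14.1 FPKM in the ovaries and 0.447, 0.490 and 0.492 FPKM in the testes. Linkage group 9 held the most, 15, followed by linkage groups 3 and 12 with 14 each and linkage groups 1 and 20 with 13 each. Linkage group 23 held 3. Relative to genes at 10 FPKM or more in each ovary, the share was highest on linkage group 20 (13 of 109, 11.9%), linkage group 12 (14 of 131, 10.7%), linkage group 17 (10 of 94, 10.6%) and linkage group 18 (11 of 108, 10.2%). It was lowest on linkage group 23 (3 of 73, 4.11%) and linkage group 7 (5 of 118, 4.24%). Over all 3247 genes at 10 FPKM or more in each ovary the share was 7.08%. Of the 14 genes on linkage group 12, 3 are the overlapping models given above, and of the 15 on linkage group 9, 4 belong to the stretch of linked models. With these small counts no linkage group was set apart, and no test was made.

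**Figure D4:**
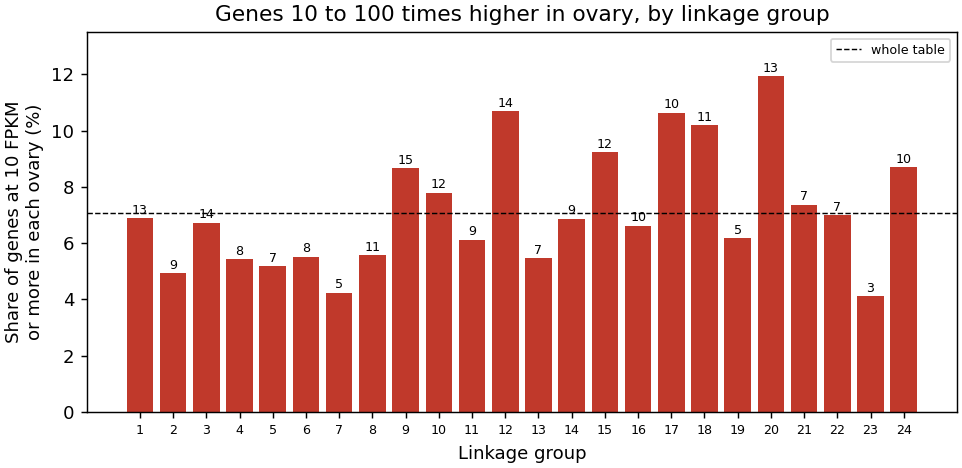
Share of genes at 10 FPKM or more in each ovary that were 10 to 100 times higher in ovary than in testis (vertical axis, %), by linkage group, with the number of such genes above each bar. The dashed line (whole table) marks 7.08%, the share over all 3247 genes at 10 FPKM or more in each ovary. The shares lie between 4.11% (linkage group 23) and 11.9% (linkage group 20).

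Most genes of the group lay far from one another, with a median distance of 804680 bp to the nearest other one on the same linkage group. Another gene of the group lay within 100000 bp for 44 of 229 and within 10000 bp for 27, and for 11 of these 27 the spans overlapped. Neither such distances nor the adjacent pairs given below were counted for other genes. The next gene with a separate span on either side belonged to the group in 18 of 458 cases (3.93%), against 1.04% of the table. A pair could be counted from both its sides, and models of the linkage group 9 stretch were among these cases. Genes 1 to 10 times higher in ovary were also more frequent there, with 56 of 458 (12.2%) against 9.60% of the table. Flanks of other ovary-expressed genes were not counted. Flanking genes at least 100 times higher in ovary numbered 2 (0.437%, against 0.385% of the table). In order of start, 11 pairs stood next to each other, forming 9 runs, of which 3 consisted of overlapping models on linkage groups 9, 12 and 15.

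Among runs with separate spans, the longest held 3 genes on linkage group 6 (3668823 to 3697024). Its first gene had 51.3, 57.6 and 62.0 FPKM in the ovaries, the second 58.5, 106 and 94.4 FPKM, and the third 20.02, 60.2 and 52.0 FPKM, with ratios to testis of 13.7, 57.6 and 45.5. Ovary 1 was lowest in all 3. A pair on linkage group 9 (5932679 to 5938622), 549 bp apart, was nearly equal in level, with ovary means of 244 and 235 FPKM and testis means of 3.55 and 3.38 FPKM, although ovary 3 was the highest ovary for one and ovary 2 for the other. A pair on linkage group 24 (12300087 to 12303669), 767 bp apart, had ovary means of 57.3 and 88.5 FPKM and testis means of 0.789 and 1.04 FPKM.

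A second pair on linkage group 24 (6936959 to 6949216) showed 23.7, 55.9 and 43.8 FPKM in the ovaries for its first gene and 24.0, 53.8 and 40.0 FPKM for its other gene, and testis means of 1.71 and 1.83 FPKM. Both genes of this pair followed the same order of ovaries. On linkage group 17 (18576255 to 18606190) neighbours 22603 bp apart had ovary means of 38.6 and 61.3 FPKM and testis means of 3.59 and 5.80 FPKM. Neighbours could also differ widely: on linkage group 22 (13279872 to 13287377) ovary means were 41.1 and 1238 FPKM, with ratios of 29.3 and 16.6, although both were highest in testis 2. Sequence similarity between neighbours was not examined, so any copies that share reads are not known.

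Spans, measured from the start to the end of a locus with introns, were shorter than in the table at large and close to those of other ovary-expressed genes. The median span was 6234 bp (quartiles 3394 and 10482 bp), against 9505 bp for the table, 6450 bp for genes at 10 FPKM or more in each ovary and 4030 bp for genes at least 100 times higher in ovary. Spans of 1500 bp or less were found for 16 genes (6.96%), against 3.02% of genes at 10 FPKM or more in each ovary and 6.48% of the table. Spans of 20000 bp or more were found for 29 genes (12.6%), against 10.3% and 26.1%. The short spans include models of 306 to 402 bp at the loci on linkage groups 9 and 12, which are uncertain as separate genes. By span, the median ovary mean was 177 FPKM up to 1500 bp, 121 FPKM from 1500 to 5000 bp and 75.2 FPKM from 5000 to 20000 bp. It was 87.4 FPKM for the 25 genes from 20000 to 100000 bp and 78.4 FPKM for the 4 longer ones, so level did not fall steadily with span. The 3 shortest spans were a gene on linkage group 1 (28078436 to 28078735, 300 bp) with 985, 1172 and 1227 FPKM in the ovaries and 80.8, 49.8 and 68.1 FPKM in the testes, and the pair of 306 bp models on linkage group 12.

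**Figure D5:**
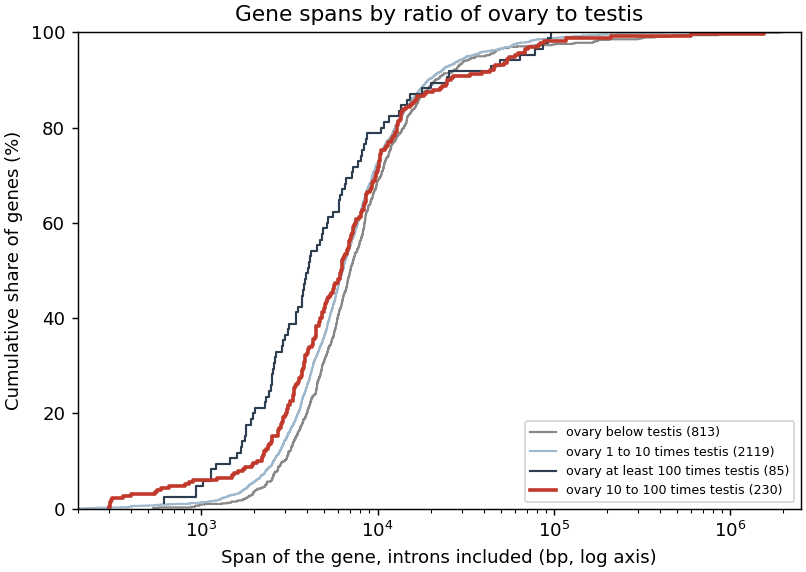
Cumulative share of genes (vertical axis, %) by span (horizontal log axis, bp) for genes at 10 FPKM or more in each ovary, in 4 classes of the ovary to testis ratio. The red curve of the 230 genes, with a median of 6234 bp, lies close to the curve of genes 1 to 10 times higher in ovary and to the right of genes at least 100 times higher, with a median of 4030 bp.

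The longest span, on linkage group 15 (19963017 to 21506934), covers 1543918 bp and overlaps 26 other genes, among them another of the group (19966198 to 19970630). The long gene had 49.9, 56.5 and 57.9 FPKM in the ovaries and 4.62, 3.72 and 5.85 FPKM in the testes, and the gene inside it had 54.2, 65.7 and 66.7 FPKM and 3.82, 2.14 and 4.46 FPKM. Both keep the same order of libraries in each gonad. Next came spans of 599480 bp on linkage group 17 (4610233 to 5209712), with 14.2, 22.3 and 22.8 FPKM in the ovaries, and of 209286 bp on linkage group 15 (1341130 to 1550415), with 117, 90.2 and 99.2 FPKM.

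Overlap with another gene's span was found for 84 of the 230 genes (36.5%), against 39.6% of the table. In 44 genes the span lay inside another and in 30 it enclosed another, counts not made for other genes. Genes under 10 FPKM in at least 1 ovary were among the partners of 73 of the 84, and made up 163 of the 224 partner entries. Such genes form 85.3% of the table. Genes at least 100 times higher in ovary were among the partners of 5 of the 84, and made up 5 of the 224 partner entries. They form 0.385% of the table. A gene can have several partners, so the counts of genes with such a partner are not like measures to these shares of the table. For example, a gene on linkage group 20 (18969944 to 19022052) with means of 52.9 FPKM in ovary and 1.01 FPKM in testis overlaps one (19012957 to 19028200) with means of 32885 and 19.0 FPKM. The 146 genes that overlap no other had median levels of 86.8 FPKM in ovary and 3.86 FPKM in testis, averaged over libraries, against 91.5 and 3.99 FPKM for all 230, and held 5.11% of the ovary sums.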

How the data were processed

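Trizol was used to extract RNA from 3 ovaries and 3 testes, and Illumina libraries were sequenced, per the labels' protocols. Per the submitters' processing notes, the tools were StringTie 1.3.3b and HISAT2 2.0.4, with no settings. No build, annotation or filter is given in the sources used here. FPKM values for 22062 genes were deposited by the authors in 1 column per library, with no pooling and 0 columns of no sample. Read depth is unknown, so no counting interval was computed. Positions are as the table gives them, and spans run from start to end inclusive.

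From these values Python 3.11.15 with pandas 2.3.3 and numpy 2.4.6 applied the rule, means, SDs and CVs. The members and the rule were chosen with earlier results of these data known. The choice used all 6 libraries, so no test was run. Genes described were the highest by ovary mean and the highest and lowest by testis mean, ovary CV, testis range and span. Those nearest the limits and runs of neighbours (consecutive starts) were described too. The gene with the lowest ovary closest to the highest testis and the gene on an unplaced sequence were added to these. Genes are given by position with 2 identifiers. The linkage group 16 gene, the model at 0.0766 FPKM and the overlap partners were chosen after their values were seen. Alternatives were TPM (sum of 1000000), median ratios over genes above 0 in all libraries, quantile normalization, other averages, a pseudocount of 1 or 0.1 FPKM, other ovary minimums and each library left out. Gene lists were not used, since identifiers carry no names.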

Additional observations from a re-analysis of the deposited data

How the results depend on the processing

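The count of 230 genes stayed within 1.5 times (180 to 293) under 7 alternatives and was 1321 with median ratio scaling, 410 after quantile normalization, 152 with the lowest ovary at least 10 times the highest testis, and 146 without overlapped spans, an alternative added after seeing the data. The last 2 only remove genes by construction. Of the 230 genes, 112 had a ratio of 100 or more with median ratios and 0 had one under 10. With TPM 73 were under 10, and after quantile normalization 22 were at 100 or more and 11 under 10. Why the count differed between the scalings was not tested. The levels and shares that follow are those of the genes chosen anew under each alternative, not of the 230 genes. Median levels, 91.5 FPKM in ovary and 3.99 in testis, were 133 and 5.75 with TPM and 39.2 and 1.98 after quantile normalization. They were 68.3 and 2.93 with an ovary minimum of 1 FPKM, 109.8 and 4.94 with 20 FPKM, and 62.5 and 2.74 with none. Adding 1 FPKM to both means gave 110.1 in ovary, and the lowest ovary against the highest testis gave 3.01 in testis. Shares of the summed values were 12.4% in ovary and 1.21% in testis for the 230 genes. For the genes chosen anew they were 7.12% and 0.361% with TPM and 37.7% and 12.0% with median ratios. These 2 scalings divide each library by a single number, so the share held by the 230 genes themselves stays the same. The shares were 6.49% and 0.329% after quantile normalization, 5.75% and 0.303% for the lowest ovary against the highest testis, and 5.11% and 0.309% without overlapped spans. A ratio of medians gave 12.0% in ovary. With 1 library left out the count was 227 to 264, the ovary median 85.9 to 94.0 FPKM, the testis median 3.77 to 4.32 FPKM, the ovary share 8.19% to 19.3% and the testis share 0.588% to 2.18%. Of the 230 genes 216 to 224 were chosen again. Log2 ratios were followed for 52 of the genes described singly. They moved by more than the spread between fish in 49 with median ratio scaling, 33 after quantile normalization, 26 with TPM and 17 with 1 FPKM added. They did so in 2 with medians, 1 with geometric means and 2 without testis 2. None did so with any other library left out, but dropping 1 of 3 values can hardly move a mean beyond that spread. None changed sign, which the rule's ratio of at least 10 favours by construction. The median testis CV of 22.3% was 11.3% over the genes chosen with median ratio scaling and 11.2% over those chosen without testis 2. Members were found on 24 linkage groups in all 9 alternatives tried for position, with median spans of 6111 to 6923 bp. The 11 pairs of neighbouring members became 8 to 12 in 6 of 10 alternatives and ran from 6 to 126 in the other 4. No paired analysis was possible because no test was run, and ovaries and testes came from different fish.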
